A study of Homo sapiens with 18 samples.

Results

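The melanocyte lineage and pigmentation genes are 10 genes chosen by name: the transcription factors MITF, SOX10, PAX3 and TFAP2A, the endothelin receptor EDNRB, the tyrosinase family enzymes TYR, TYRP1 and DCT, and the melanosome proteins PMEL and MLANA. The count table has a row for 8 of them among its 20705 genes, and SOX10 and MLANA were not analysed here. RNA-seq libraries of 2 human melanoma cell lines, CHL1 and A375, both labelled WT, were compared in 9 groups of 2 libraries each. CHL1 carries wild-type BRAF and NRAS and mutant p53 and was grown in DMEM. A375 carries mutant BRAF and wild-type p53 and was grown in RPMI-1640. Each line had a DMSO control of 72 hours, CDK4/6 inhibition (CDK4/6i, palbociclib at 1 μM) for 72 hours and for 6 days, and PRMT5 inhibition (PRMT5i, GSK3326595 at 500 nM) for 72 hours. A375 also had a DMSO control of 6 days. The 6-day CHL1 cells were therefore set against the 72-hour control, so that time and drug cannot be told apart in that comparison.

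Melanocytes arise from the neural crest, where PAX3 and SOX10 switch on MITF, the basic helix-loop-helix factor that drives the pigment cell programme. MITF and its relatives bind E-box sequences, among them the M-box found near the start sites of the pigment enzyme genes. TYR starts melanin synthesis from tyrosine, DCT converts dopachrome, TYRP1 acts later on the eumelanin branch, and PMEL builds the fibrils on which melanin is laid down in the melanosome.

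The promoters of the tyrosinase family are shown because its 3 genes hold the same short sequence near their start sites and were at very different levels in these cells. They are RefSeq sequences of GRCh38.p14, from 250 bases before to 50 bases after the start site, and 7 of the 8 genes with a row had at least 1 such entry. Capitals mark the M-box core CATGTG, or CACATG where it lies on the other strand. The TYR promoter is chr11:89177625-89177924 on the plus strand, that of TYRP1 is chr9:12693135-12693434 on the plus strand, and the DCT entry shown, the second of 2, is chr13:94479633-94479932 on the minus strand.
TYR: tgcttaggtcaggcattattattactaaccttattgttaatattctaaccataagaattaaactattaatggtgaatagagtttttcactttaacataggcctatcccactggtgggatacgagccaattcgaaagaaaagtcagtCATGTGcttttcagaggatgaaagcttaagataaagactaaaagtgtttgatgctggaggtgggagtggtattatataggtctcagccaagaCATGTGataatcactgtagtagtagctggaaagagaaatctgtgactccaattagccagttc
TYRP1: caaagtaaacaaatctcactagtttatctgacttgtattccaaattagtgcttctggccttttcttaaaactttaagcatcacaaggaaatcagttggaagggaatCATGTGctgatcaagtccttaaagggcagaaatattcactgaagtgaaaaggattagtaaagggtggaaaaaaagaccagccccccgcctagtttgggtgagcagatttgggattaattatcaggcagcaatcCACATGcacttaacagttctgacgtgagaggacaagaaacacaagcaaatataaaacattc
DCT: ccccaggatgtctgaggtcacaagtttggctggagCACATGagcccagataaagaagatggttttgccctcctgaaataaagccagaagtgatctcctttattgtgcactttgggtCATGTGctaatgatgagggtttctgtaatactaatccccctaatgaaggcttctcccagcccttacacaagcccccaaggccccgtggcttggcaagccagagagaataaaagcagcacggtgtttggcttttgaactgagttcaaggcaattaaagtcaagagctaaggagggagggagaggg

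Each of these 3 promoters holds the M-box core 2 times. In TYR the cores begin 104 and 12 bases before the start site, in TYRP1 144 and 11 bases before it, and in DCT 215 and 134 bases before it, while the other DCT entry holds none. The core occurs in 11.1% of the 35116 RefSeq promoters of this length. The first of 2 EDNRB entries holds it 1 time, and it was not found in the entries of MITF, PAX3 and TFAP2A. The other E-box searched on both strands, CACGTG, is in 7.26% of all promoters and in none of the entries of these genes. Of the SOX motifs, ACAATG (10.8% of promoters) and ACAAAG (16.1%) each occur 1 time, in the first and the second of 3 MITF entries. A match is a description of letters, not of binding.

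The libraries held 20509245 to 37424081 counts in CHL1 and 16213475 to 36036772 in A375, and levels are given as CPM, a count scaled to the library size after TMM adjustment. Replicates differed by more than counting noise, with a chi-square per degree of freedom of 7.60 to 117.8. By their names, all CHL1 samples and the 6-day A375 samples form 1 library set, whereas the 72-hour A375 samples form another, so that time and set cannot be told apart between the A375 controls. In 4 libraries GC-rich genes were low relative to GC-poor genes: relative to the median library of the line, the difference between the 10% GC-richest and the 10% GC-poorest genes was -2.49 and -1.97 on the log2 scale in CHL1 PRMT5i and -2.29 and -1.13 in the A375 6-day control, against -0.16 to 0.50 in the other libraries. Called changes of named genes against control in these groups are therefore given with a GC correction beside them. Of the comparisons between the lines that use the A375 6-day controls, only that of the TFAP2A response is. Keratinocyte markers (3 of 5 with a row) summed to 17.6 to 21.5 CPM in CHL1 PRMT5i against 7.41 to 7.88 CPM in its controls, and to 49.0 to 58.6 CPM in the A375 6-day controls against 25.1 to 27.0 CPM under CDK4/6i. Immune markers (2 of 5 with a row) summed to 1.98 to 22.8 CPM over all libraries, with 16.0 to 22.8 CPM in A375 CDK4/6i of 6 days against 4.24 to 4.26 CPM in its controls. At 72 hours A375 CDK4/6i had 8.56 to 8.82 CPM of them against 1.98 to 2.64 CPM, and 26.2 to 29.0 CPM of the keratinocyte markers against 15.8 to 19.4 CPM. In CHL1 the immune markers were at 7.59 to 7.91 CPM in controls, 9.46 to 12.4 CPM under CDK4/6i of 72 hours, 16.9 to 17.0 CPM at 6 days and 14.1 to 16.1 CPM under PRMT5i. Single genes carried much of these sums. In A375 CDK4/6i of 6 days, the immune marker LYZ was at 18.9 CPM against 3.76 CPM in its controls. PTPRC, the other immune marker, was at 0.46 against 0.49 CPM. Of the keratinocyte markers KRT10 was lower there, at 17.5 against 47.7 CPM (edgeR adjusted p = 0.000367). KRT14, at 8.45 against 6.03 CPM, overlapped its controls and was not called (edgeR adjusted p = 0.496). In CHL1 controls PTPRC was at 7.59 CPM and LYZ at 0.16 CPM. VWF, the endothelial marker with a row, was at 0 to 2.81 CPM. The part of these markers in the changes described here was not tested, and in bulk RNA fewer cells of a type and less RNA per cell cannot be told apart.

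In untreated CHL1 cells the lineage factors, EDNRB and 1 pigment enzyme, DCT, were expressed, while TYRP1 and PMEL were low, at 21 to 31 reads a library, and TYR was at the floor of 3 reads. Untreated A375 cells of 72 hours had more MITF, less PAX3 and TFAP2A, little EDNRB and no read of DCT. In CHL1, 7 of the 8 genes averaged at least 1 CPM over the line's libraries, and in A375 5 of 8. Per kilobase of exon, the order in CHL1 controls was PAX3 (18 ± 1.53 CPM per kb, SD, n = 2), DCT (11.0 ± 2.41), MITF (9.30 ± 0.53), EDNRB (8.46 ± 1.05) and TFAP2A (7.26 ± 0.91), and then, much lower, PMEL (0.27 ± 0.015), TYRP1 (0.24 ± 0.071) and TYR (0.020 ± 0.0099). Neighbours from DCT to TFAP2A overlapped between replicates, as did PMEL and TYRP1. In A375 controls of 72 hours the order was MITF (14.96 ± 0.60 CPM per kb), PAX3 (5.62 ± 0.054), TFAP2A (1.78 ± 0.13), EDNRB (0.74 ± 0.049), PMEL (0.31 ± 0.012), TYRP1 (0.13 ± 0.11) and TYR (0.0094 ± 0.013), and each of the first 6 lay clear of the next.

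**Figure D1:**
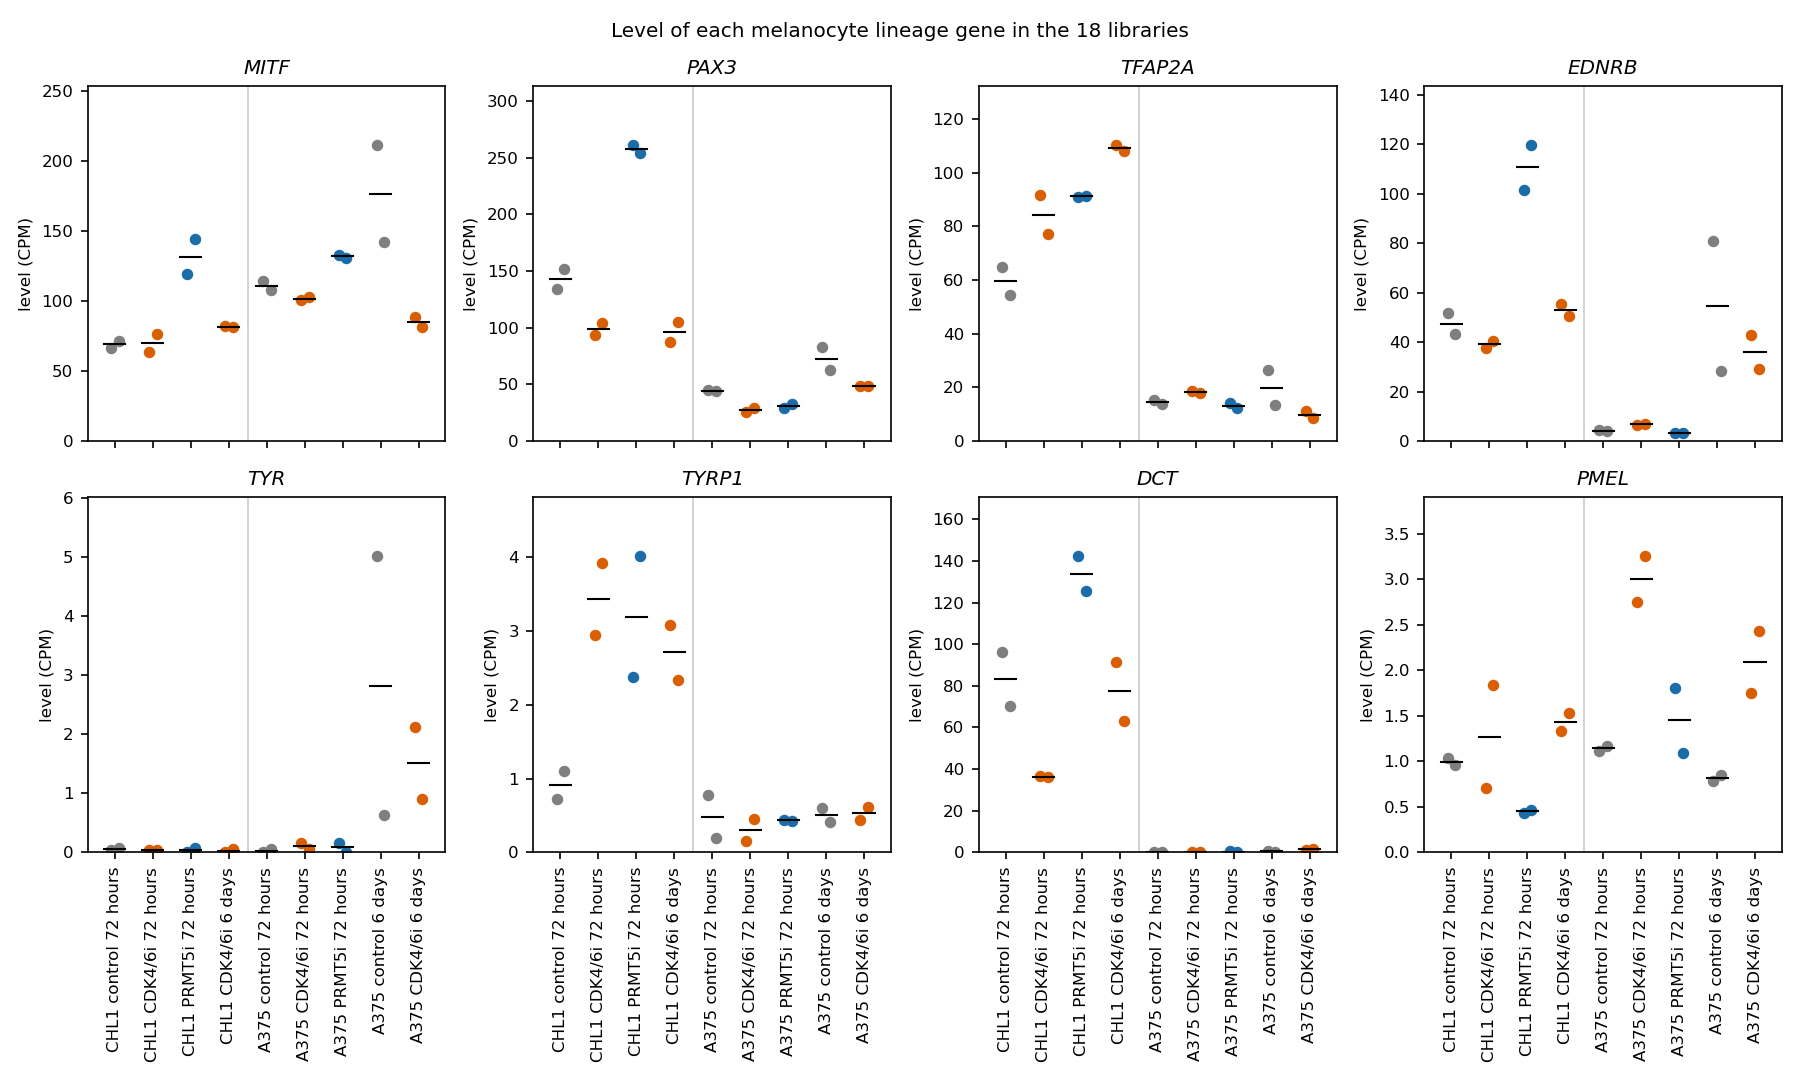
Level of each of the 8 genes in CPM (linear axis from 0) in the 18 libraries, 1 point per library, with the mean of each group as a bar; grey is control, orange CDK4/6i and blue PRMT5i, and the vertical line separates CHL1 from A375. DCT lies at 36.3 to 142.3 CPM in CHL1 and at 0 to 1.79 CPM in A375, while TYR rises above 0.2 CPM only in the 4 A375 libraries of 6 days.

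MITF (chr3:69788607-70017487, plus strand, GRCh37) had 66.3 and 71.8 CPM in CHL1 controls and 114.2 and 107.9 CPM in A375 controls of 72 hours, so that the lines did not overlap. It was lower in CHL1 by 0.69 on the log2 scale (SE 0.18, adjusted p = 0.00292). PAX3 (chr2:223064606-223163717, minus strand) had 134.3 and 151.5 CPM in CHL1 against 44.9 and 44.3 CPM in A375, a level 3.20-fold higher (adjusted p = 8.43e-08). TFAP2A (chr6:10393419-10419892, minus strand), which encodes the neural crest factor AP-2 alpha, had 65.0 and 54.4 CPM against 15.4 and 13.9 CPM, or 4.07-fold more (adjusted p = 7.51e-07). In this comparison of untreated lines, 5 of the 8 genes were called and 58.9% of all genes were, so that a called gene was the common case. The differences of these 3 genes kept their call with any 1 of the 4 libraries left out. The CHL1 controls and the A375 controls of 72 hours belong to different library sets. Against the A375 controls of 6 days, which share the set of CHL1, the log2 difference was -1.36 for MITF (adjusted p = 3.34e-06) and 0.98 for PAX3 (4.86e-05). For TFAP2A it was 1.58 (1.1e-05), where the 72-hour controls gave 2.03. The size of all 3 differences thus moved with the control.

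EDNRB (chr13:78469616-78549664, minus strand), the receptor through which endothelins act on melanoblasts, had 51.6 and 43.3 CPM in CHL1 controls and 4.34 and 3.96 CPM in A375 controls of 72 hours, an 11.4-fold difference (adjusted p = 8.99e-08). The A375 controls of 6 days were far from those of 72 hours, at 81.1 and 28.5 CPM. Against them the log2 difference between the lines was -0.21 (adjusted p = 0.57). The 2 A375 libraries of CDK4/6i for 6 days, from the same library set, had 42.8 and 29.0 CPM.

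DCT (chr13:95089065-95131936, minus strand) gave 2783 and 1986 reads in CHL1 controls and 0 reads in both A375 controls of 72 hours, which allows up to 0.145 and 0.147 CPM there. The level in CHL1 was at least 571.5-fold higher, counted against a floor of 3 reads per library (adjusted p = 4.12e-12). The A375 controls of 6 days had 19 and 11 reads of DCT, and against them the log2 difference was 7.49 (adjusted p = 7.18e-12). TYR (chr11:88911043-89028927, plus strand) had at most 3 reads in each CHL1 library and in each A375 library of 72 hours. In A375 libraries of 6 days it had 167 and 20 reads in the control and 78 and 34 reads under CDK4/6i. TYR was thus seen in A375 in the same libraries in which EDNRB was high, and the profiles of these 2 genes over the 9 group means, centred within each line, had a Pearson r of 0.93. Such an r is a description, since the points share libraries and depth.

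TYRP1 (chr9:12685439-12710285, plus strand) had 21 and 31 reads in CHL1 controls and 16 and 4 in A375 controls, ranges whose CPM overlapped (log2 difference 0.90, adjusted p = 0.151). Without A375 control replicate 1 the difference was 2.16 (adjusted p = 0.0194). PMEL (chr12:56347889-56367101, minus strand) had 30 and 27 reads in CHL1 against 23 and 24 in A375 (adjusted p = 0.70). At these depths a small difference between the lines could not be seen. Counting was at the default settings of HTSeq, which use strand, but the sources used here do not say whether the library kit, TruSeq RNA, marked it. If it did not, reads of PMEL and of CDK2, which lies on the other strand and shares 89 exonic bases with it, cannot be told apart there, nor can those of TYRP1 and LURAP1L-AS1 (102 bases), TFAP2A and its antisense RNAs TFAP2A-AS2 and TFAP2A-AS1 (941 and 438 bases) and EDNRB and OBI1-AS1 (80 bases). EDNRB also shares 124 exonic bases with ENSG00000233379 on its own strand.

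Inhibition of CDK4/6 for 72 hours in CHL1 raised TYRP1 and lowered DCT, and the other 6 genes were not called. These 2 calls among the 8 genes compare with 4.98% of all genes called. TYRP1 went from 0.73 and 1.10 CPM in the controls to 2.95 and 3.92 CPM, a rise of 1.91 on the log2 scale (SE 0.35, adjusted p = 0.0129) without overlap. DCT fell from 96.1 and 70.4 CPM to 36.5 and 36.3 CPM, by 1.20 on the log2 scale (SE 0.21, adjusted p = 0.0101). These 2 enzymes of the same family moved in opposite directions in the same libraries. The TYRP1 call was lost without either control library or without CDK4/6i replicate 2 (adjusted p = 0.145, 0.0767 and 0.111), and that of DCT without control replicate 1 or either CDK4/6i library (adjusted p = 0.124, 0.105 and 0.104).

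The other genes of CHL1 at 72 hours did not pass the test. PAX3 had 93.7 and 104.0 CPM, below both controls (log2 fold change -0.53, SE 0.16, adjusted p = 0.0706). TFAP2A had 91.5 and 77.0 CPM, above both controls (log2 fold change 0.49, SE 0.16, adjusted p = 0.0997). Both of these passed under DESeq2 (adjusted p = 0.0326 and 0.0454) and with the GC correction (adjusted p = 0.0182 and 0.0256). MITF had 63.8 and 76.3 CPM on either side of its controls, at a log2 fold change of 0.02 (SE 0.16). EDNRB had 37.7 and 40.7 CPM (adjusted p = 0.392), and PMEL had 19 and 51 reads that spread around the controls (adjusted p = 0.697).

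After 6 days of CDK4/6i in CHL1, 3 of the 8 genes were called, against 16.6% of all genes. PAX3 was lower at 87.6 and 104.9 CPM, having fallen by 0.56 on the log2 scale (SE 0.16, adjusted p = 0.0299). TFAP2A was higher at 110.2 and 107.9 CPM, by 0.88 (SE 0.16, adjusted p = 0.00431), and TYRP1 was higher at 3.09 and 2.34 CPM, by 1.59 (SE 0.36, adjusted p = 0.0116). DCT, at 91.7 and 63.2 CPM, overlapped its controls (log2 fold change -0.09, SE 0.21, adjusted p = 0.831). MITF had 81.95 and 81.3 CPM, above both controls but not called (log2 fold change 0.26, SE 0.16, adjusted p = 0.321). EDNRB had 55.5 and 50.7 CPM (adjusted p = 0.517) and PMEL 35 and 32 reads (adjusted p = 0.417). Left without control replicate 1, control replicate 2 or 6-day replicate 1, PAX3 (adjusted p = 0.0968, 0.245 and 0.102) and TYRP1 (0.115, 0.0551 and 0.0761) lost their calls, and TFAP2A did without control replicate 2 (0.0838).

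When the 6-day and 72-hour CDK4/6i libraries of CHL1 were compared directly with edgeR, none of the 8 genes was called, against 0.0145% of all genes, 3 had an unadjusted p under 0.05, and DESeq2 called 1. DCT gave the smallest unadjusted p of these. Its 6-day libraries lay above those of 72 hours by 1.11 on the log2 scale (SE 0.21), with an unadjusted p of 0.000209 in edgeR's quasi-likelihood test and an adjusted p of 0.16. TFAP2A (log2 difference 0.39) and EDNRB (0.46) also lay higher at 6 days without overlap, with adjusted p of 0.571 and 0.514.

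In A375, 72 hours of CDK4/6i lowered PAX3 and raised PMEL, and a few reads of DCT appeared. These 3 calls of 8 compare with 13.3% of all genes. PAX3 fell from 44.9 and 44.3 CPM to 26.0 and 28.9 CPM, by 0.76 on the log2 scale (SE 0.18, adjusted p = 0.0109). PMEL rose from 23 and 24 reads to 52 and 65 reads, by 1.33 (SE 0.36, adjusted p = 0.0226). DCT had 6 and 4 reads against 0 and 0, a level at least 1.78-fold higher than the floor of 3 reads per library (adjusted p = 0.0317).

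All 3 calls were lost when any 1 of the 4 libraries was left out: the adjusted p was then 0.0799 to 0.153 for PAX3, 0.0895 to 0.176 for PMEL and 0.0732 to 0.153 for DCT. MITF had 100.7 and 102.7 CPM, just below the control libraries (log2 fold change -0.19, SE 0.19, adjusted p = 0.572). EDNRB had 6.50 and 7.01 CPM, above both controls (log2 fold change 0.64, SE 0.37, adjusted p = 0.287, but 0.0195 in a fit of these groups alone and 0.00368 with the replicate block). TFAP2A had 18.5 and 18.1 CPM (adjusted p = 0.572), TYRP1 3 and 9 reads (adjusted p = 0.56), and TYR remained at the floor.

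After 6 days of CDK4/6i, A375 had less MITF, PAX3 and TFAP2A and more DCT and PMEL than its 6-day control. These 5 of 8 genes were called against 43.1% of all genes, a background against which the count has to be read. MITF went from 211.4 and 142.0 CPM to 88.5 and 81.3 CPM, having fallen by 1.05 on the log2 scale (SE 0.19, adjusted p = 0.000499). PAX3 went from 82.8 and 62.3 CPM to 48.9 CPM in both libraries, a fall by 0.57 (SE 0.18, adjusted p = 0.0163). TFAP2A went from 26.4 and 13.5 CPM to 11.2 and 8.60 CPM, a fall by 1.01 (SE 0.26, adjusted p = 0.00623). Each of these 3 factors was lower in both treated libraries than in both controls, although the controls themselves differed widely.

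DCT rose from 19 and 11 reads to 32 and 67 reads, by 1.53 on the log2 scale (SE 0.49, adjusted p = 0.0216). PMEL rose from 26 and 27 reads to 64 and 91 reads, by 1.35 (SE 0.35, adjusted p = 0.00613), a rise of the size seen at 72 hours. TYRP1, with 16 and 23 reads against 20 and 13 (adjusted p = 0.95), EDNRB (0.151) and TYR (0.30) overlapped their controls. The fold changes of the latter 2 turned on 1 library: without control replicate 2 EDNRB was at -1.15 (adjusted p = 0.000296) and TYR at -1.69 (adjusted p = 0.0117), and without control replicate 1 they were at 0.30 (0.305) and 1.24 (0.18).

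The 6-day controls carry the GC trend and the treated libraries do not. A technical trend and a GC-related difference between the groups therefore cannot be told apart. The changes were also fitted with a GC correction, next to the uncorrected fit on the same genes. PAX3 (-0.90, adjusted p = 0.00108), TFAP2A (-1.31, adjusted p = 0.00394) and DCT (2.06, adjusted p = 0.00546) were then larger, and MITF (-0.61, adjusted p = 0.00123) smaller but called. PMEL lost its call (0.84, adjusted p = 0.0629). Against the 72-hour controls of the other library set, MITF (-0.43, adjusted p = 0.0948), TFAP2A (-0.62, adjusted p = 0.091) and PMEL (0.82, adjusted p = 0.0919) were not called and PAX3 was at 0.09. Leaving out a library cost TFAP2A its call without control replicate 1 (-0.49, adjusted p = 0.0747) or CDK4/6i replicate 2 (-0.83, adjusted p = 0.0715), PAX3 without either CDK4/6i library (-0.58 and -0.56, adjusted p = 0.0795 and 0.083), DCT without control or CDK4/6i replicate 2 (1.24 and 0.93, adjusted p = 0.0894 and 0.248) and PMEL without CDK4/6i replicate 2 (1.10, adjusted p = 0.0595). DCT was not called by DESeq2 (adjusted p = 0.115), nor PAX3 in a fit of these 4 libraries alone (adjusted p = 0.137).

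The A375 responses at 6 days and at 72 hours were compared in 1 test of their difference. edgeR called none of the 8 genes, against 1.08% of all genes, while 4 had an unadjusted p under 0.05 and DESeq2 called 2.

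**Figure D2:**
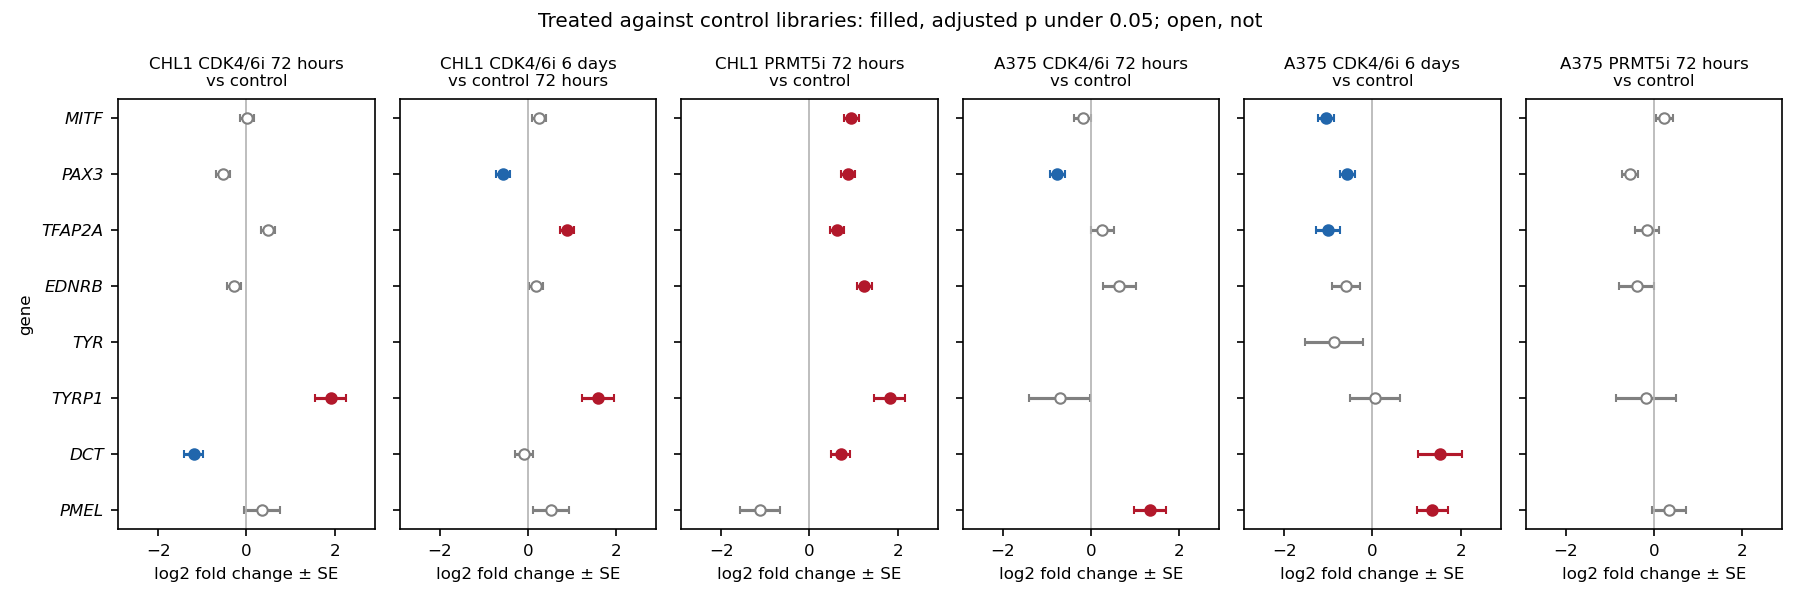
Log2 fold change of each gene against control in the 6 treatment comparisons, with its standard error as a bar; filled red points were called higher and filled blue points lower by edgeR (adjusted p under 0.05 over 20705 genes), open points were not called, and genes with a group at the floor have no point. PAX3 lies left of 0 in each comparison but CHL1 PRMT5i, and PMEL lies right of 0 under CDK4/6i in each of the 4 panels.

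Under PRMT5i in CHL1, 6 of the 8 genes were higher, the most in any of the 6 treatment comparisons. Of all 20705 genes, 54% were called in either direction, 5461 higher and 5715 lower. The 8 genes had a median log2 fold change of 0.79, against 0.00 for all genes. On the genes with a GC value their median was 0.80, and 0.30 with the GC correction. PAX3 was at 261.0 and 253.8 CPM against 134.3 and 151.5 CPM in the controls, higher by 0.87 on the log2 scale (SE 0.16, adjusted p = 0.000641). MITF was at 119.2 and 144.2 CPM, higher by 0.95 (SE 0.16, adjusted p = 0.000517). TFAP2A was at 91.0 and 91.3 CPM, higher by 0.63 (SE 0.16, adjusted p = 0.00535). Neither treated library overlapped a control library for any of these factors.

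EDNRB was at 101.6 and 119.6 CPM, 2.36-fold above its controls (log2 1.24, SE 0.17, adjusted p = 0.000154). TYRP1 was at 71 and 112 reads against 21 and 31, higher by 1.82 (SE 0.35, adjusted p = 0.001). DCT was at 142.3 and 125.5 CPM, higher by 0.70 (SE 0.21, adjusted p = 0.0125). PMEL lay below its controls, at 13 reads in both libraries against 30 and 27, and did not pass the test (log2 fold change -1.12, SE 0.46, adjusted p = 0.0576), though it did in a fit of these groups alone (0.0362) or of all 18 libraries (0.0364). With the GC correction PMEL was at -0.33 (adjusted p = 0.666). TYR stayed at 0 and 2 reads.

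The 2 PRMT5i libraries carry the GC trend, and no other CHL1 library does. A GC-related response to the drug and a technical trend therefore cannot be told apart, and the correction would remove either. Of the 6 calls, 3 were kept with the GC correction. With it, PAX3 (1.19, SE 0.13, adjusted p = 0.000137), TFAP2A (0.89, SE 0.13, adjusted p = 0.000681) and TYRP1 (1.03, SE 0.33, adjusted p = 0.0393) stayed called, at GC contents of 49.99%, 49.4% and 40.3%. MITF, at 41.2% GC, was at 0.25 (SE 0.13, adjusted p = 0.188). EDNRB, at 39.3% GC, was at 0.34 (SE 0.13, adjusted p = 0.0634), and DCT, at 40.2% GC, was at -0.11 (SE 0.16, adjusted p = 0.665). Among all genes with a GC value the share called went from 60.8% to 28.7%. TFAP2A lost its call without control replicate 2 (0.51, adjusted p = 0.0798), and DCT without control replicate 2 (0.50, adjusted p = 0.142) or PRMT5i replicate 1 (0.61, adjusted p = 0.0547).

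**Figure D3:**
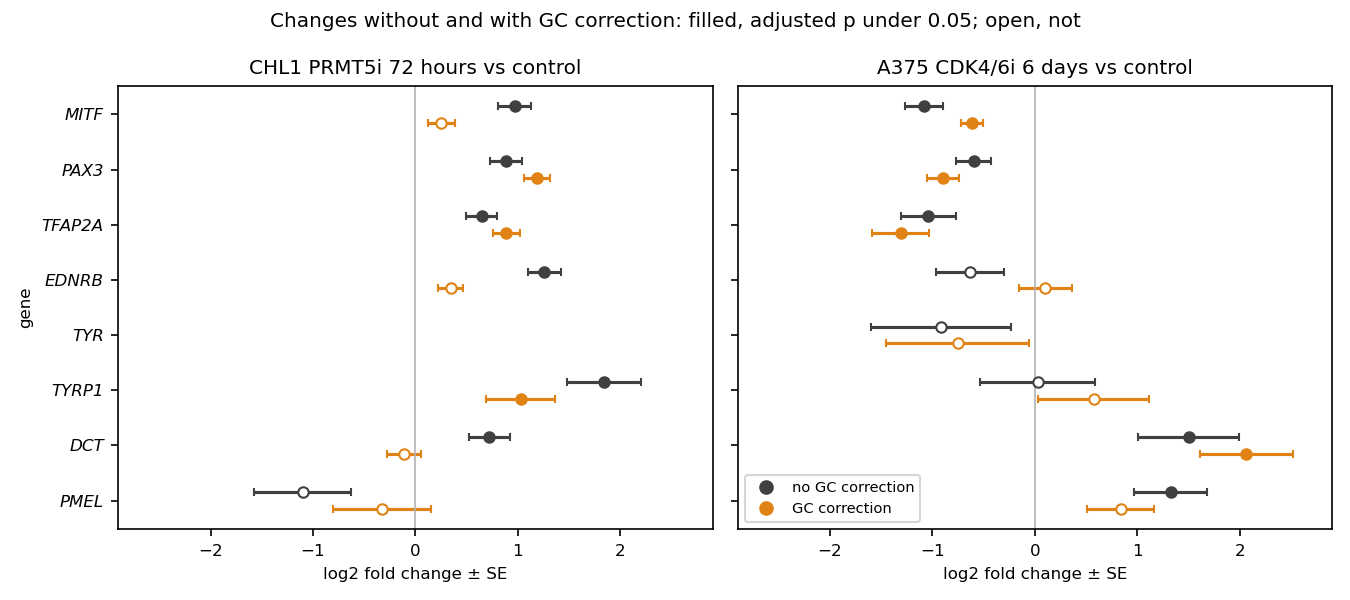
Log2 fold changes with standard errors for CHL1 PRMT5i of 72 hours (left) and A375 CDK4/6i of 6 days (right), without (dark) and with (orange) the GC correction on the same genes; filled points have an adjusted p under 0.05. In CHL1 the GC-poor genes MITF, EDNRB and DCT shift to 0.25, 0.34 and -0.11 while PAX3 and TFAP2A move up, and in A375 the falls of PAX3 and TFAP2A grow to -0.90 and -1.31.

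In A375 the same drug gave 1 call among the 8 genes. The gene was DCT, at 8 and 4 reads against 0 and 0, at least 2.34-fold above the floor (adjusted p = 0.0493), where 2.61% of all genes were called. DESeq2 gave DCT no adjusted p and called none of the 8, and the call was lost without any 1 of the 4 libraries (adjusted p = 0.168 to 0.283). PAX3, at 29.4 and 32.4 CPM, lay below both controls (log2 fold change -0.55, SE 0.18, adjusted p = 0.128), and passed with the GC correction (0.0455) or in a fit of these groups alone (0.0213). MITF, at 133.0 and 130.9 CPM, lay above both (0.24, SE 0.19, adjusted p = 0.596). In the 6 A375 libraries of 72 hours, 3 genes were called with the replicate block, and only the call of MITF needed it. PAX3 was at an adjusted p of 1.32e-06 (0.00519 without the block), MITF at 0.0236 (0.117) and DCT at 0.00333 (0.0194). EDNRB had 3.13 and 3.28 CPM (adjusted p = 0.694), TFAP2A 14.3 and 12.3 CPM (adjusted p = 0.841), PMEL 33 and 18 reads (adjusted p = 0.721) and TYRP1 8 and 7 reads (adjusted p = 0.949).

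Whether the lines responded differently was tested in the fit of all 18 libraries. For CDK4/6i at 72 hours edgeR called no difference among the 8 genes, against 0.642% of all genes, with 2 at an unadjusted p under 0.05 and 1 called by DESeq2. For CDK4/6i at 6 days 3 of 8 differed, against 21.9% of all genes. MITF responded 1.30 higher in CHL1 than in A375 on the log2 scale (SE 0.25, adjusted p = 0.00182), TFAP2A 1.88 higher (SE 0.33, adjusted p = 0.000853) and DCT lower, by -1.63 (SE 0.46, adjusted p = 0.0189). TFAP2A had risen in CHL1 and fallen in A375, and with the GC correction its difference was 2.19 (adjusted p = 0.000409). CHL1 has only a 72-hour control, so that time enters its response and not that of A375. When the A375 cells were set against their control of 72 hours, the MITF difference was 0.63 (adjusted p = 0.0995). The TFAP2A difference was then 1.44 (adjusted p = 0.00503), and its fall in A375 was not called (-0.62, adjusted p = 0.091). The DCT difference was not called without CHL1 control replicate 1, A375 6-day control replicate 2 or A375 6-day CDK4/6i replicate 2 (adjusted p = 0.0653, 0.0598 and 0.171), or in a fit of the compared groups alone (0.0684).

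For PRMT5i 5 of 8 responses differed between the lines, against 40.9% of all genes. PAX3 responded 1.38 higher in CHL1 (SE 0.23, adjusted p = 0.000387), and this difference stood at 1.73 with the GC correction. EDNRB (1.60, adjusted p = 0.0139), TYRP1 (1.97, adjusted p = 0.0468) and MITF (0.68, adjusted p = 0.0364) were also higher in CHL1, but with the GC correction they were at 0.66 (adjusted p = 0.26), 1.16 (0.302) and -0.02 (0.971). DCT differed too (adjusted p = 0.0167), with its A375 control at 0 reads, so that the fitted size depends on the prior count. With 1 library left out, MITF lost its call in 7 of 8 fits (adjusted p = 0.0682 to 0.143) and was called only without CHL1 PRMT5i replicate 1. TYRP1 lost its call without CHL1 control replicate 1 (0.136), CHL1 PRMT5i replicate 2 (0.119), A375 control replicate 1 (0.72, adjusted p = 0.624) or either A375 PRMT5i library (0.11 and 0.106), with the replicate block (0.051) and in a fit of the compared groups alone (0.0555). EDNRB lost it without A375 PRMT5i replicate 1 (0.0529), and DCT without either A375 control (0.0735 and 0.0642) or A375 PRMT5i replicate 1 (0.0679).

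The drugs were also compared with each other at 72 hours. In CHL1, 5 of 8 genes differed, against 57.8% of all genes. PRMT5i libraries held more MITF (0.93, adjusted p = 0.000443), PAX3 (1.40, adjusted p = 2.85e-05), EDNRB (1.52, adjusted p = 2.68e-05) and DCT (1.90, adjusted p = 2.92e-05) and less PMEL (-1.47, adjusted p = 0.014) than CDK4/6i libraries. With the GC correction MITF was at 0.15 (adjusted p = 0.419) and PMEL at -0.65 (0.30), while PAX3 (1.72), EDNRB (0.55, adjusted p = 0.00532) and DCT (1.00, adjusted p = 0.000729) remained called, the latter 2 at smaller differences. PMEL also lost its call without CDK4/6i replicate 2 (-0.63, adjusted p = 0.302) or PRMT5i replicate 1 (-1.42, adjusted p = 0.0672). TYRP1, higher under either drug, stood at -0.08 between them (SE 0.31, adjusted p = 0.856). In A375 edgeR called none of the 8, against 5.45% of all genes, with 3 at an unadjusted p under 0.05 and 0 called by DESeq2. In the 6 A375 libraries of 72 hours alone 3 were called, and 4 with the replicate block.

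Around these genes, 4 further lists were described: 21 genes of melanosome biogenesis and transport, 22 genes described as MITF targets, 8 melanocyte receptors and ligands, and 11 MITF relatives and neural crest factors. Under CDK4/6i at 72 hours in CHL1, edgeR called 0, 4, 0 and 1 of them, against 4.98% of all genes, with 2 melanosome genes and 0 receptors or ligands at an unadjusted p under 0.05 and 1 and 0 called by DESeq2. ASAH1, the lysosomal acid ceramidase, rose by 1.00 on the log2 scale (SE 0.15, adjusted p = 0.0044) and the transcription factor IRF4 by 0.78 (adjusted p = 0.0217). PIR (-0.97, adjusted p = 0.0312) and the sialyltransferase gene ST3GAL6 (-0.79, adjusted p = 0.0378) fell. SNAI2, the neural crest repressor Slug, rose by 0.75 (adjusted p = 0.0483).

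At 6 days in CHL1 the lists gave 3, 8, 1 and 3 calls, 12 of them upward. Of all 20705 genes 16.6% were called, 1828 upward and 1615 downward. ASAH1 (1.15), IRF4 (0.95), SNAI2 (1.10) and PIR (-1.04) held their directions. ATP7A, the copper pump that loads tyrosinase, rose by 1.13 (adjusted p = 0.00589), LYST by 0.72 (0.0212), KITLG, the KIT ligand, by 1.03 (0.00857) and TFAP2C, a relative of TFAP2A, by 0.97 (0.00799). MREG fell by 0.72 (adjusted p = 0.0233). The MITF targets split 5 up and 3 down at a median of 0.20, against 0.03 for all genes.

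In A375 the 72-hour lists gave 5, 3, 1 and 2 calls, against 13.3% of all genes. GPNMB, a melanosomal glycoprotein related to PMEL, rose 3.16-fold (log2 1.66, SE 0.20, adjusted p = 7.95e-05), with ASAH1 (1.15), the cystine transporter gene CTNS (0.85), RRAGD (0.69), the endothelin receptor EDNRA (0.75), SNAI2 (1.98) and TFEC (1.21). HPS3 (-0.66) and DTNBP1 (-0.65) fell. At 6 days there were 11, 10, 3 and 7 calls, against 43.1% of all genes. GPNMB rose by 1.60 and SLC45A2, a melanosomal transporter, by 2.25 (adjusted p = 2.8e-05), while SLC24A5, another, fell by 2.52 (adjusted p = 0.000141). With the GC correction these stood at 1.71, 2.05 and -1.40 and remained called.

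Among the other genes of A375 at 6 days, MBP (1.56), CLCN7 (1.52), EDNRA (0.59), ECE1 (0.59), TFEC (1.01) and TFE3, a close relative of MITF (0.95), rose, and INPP4B (-1.08), APOE (-1.05), KITLG (-0.61), AP3B1 (-0.78), SOX5 (-1.50) and ZEB1 (-1.35) fell. With the GC correction INPP4B (-0.20, adjusted p = 0.318), KITLG (0.24, 0.323), AP3B1 (-0.07, 0.634) and ECE1 (0.01, 0.938) were not called, and TFEC (2.19), TFE3 (0.38), EDNRA (0.97), SOX5 (-0.80), ZEB1 (-0.61), MBP (1.17), APOE (-1.18) and CLCN7 (0.98) were. The list of MITF relatives had 2 rises and 5 falls, and a median of -0.61 against 0.10 for all genes.

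PRMT5i in CHL1 gave 13, 14, 3 and 6 calls in these lists, and 4, 5, 2 and 3 with the GC correction, against 54% of all genes, or 60.8% and 28.7% of those with a GC value without and with the correction. GPR137B (1.37, and 1.27 corrected), ST3GAL6 (1.31 and 0.75) and SNAI2 (1.22 and 0.54) rose, and ERBB3, a neuregulin receptor of the neural crest (-1.77 and -1.14), ECE1, which matures endothelins (-1.65 and -0.54), and CTNS (-1.39 and -0.51) fell in both fits. Without the correction AP3B1 (1.13), SLC24A5 (1.13), KITLG (1.26) and SOX5 (1.13) rose, and HPS6 (-1.72), CLCN7 (-1.32), VAT1 (-1.22), TFE3 (-0.97) and TFEB (-0.83) fell. With it the adjusted p of all of these was 0.0535 or more. The signs of SLC24A5 (-0.15), CLCN7 (0.004), TFE3 (0.19) and TFEB (0.42) turned. In A375 PRMT5i called 0, 1, 0 and 0, against 2.61% of all genes, with 3, 3 and 3 genes of the lists without a call at an unadjusted p under 0.05 and 2, 0 and 0 called by DESeq2. SEMA6A, an axon guidance ligand, fell by 1.54 (SE 0.25, adjusted p = 0.00588).

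Between the untreated lines, 16 of the 22 described MITF targets were higher in CHL1 and 1, APOE, was lower, at a median log2 difference of 1.25 against -0.02 for all genes, while MITF itself was lower in CHL1. Of all 20705 genes 58.9% were called in this comparison in either direction, 6067 higher in CHL1 and 6138 lower. The melanosome list split into 8 higher and 8 lower. Of these, 3 were singled out after their values were seen. OCA2, a melanosomal transporter, was at 482.8 CPM in CHL1 and 2.09 CPM in A375. MLPH, the melanophilin that links melanosomes to myosin, was at 0 against 53.2 CPM, and GPNMB at 0.23 against 56.0 CPM. In the A375 controls of 6 days OCA2 was at 23.4, MLPH at 10.3 and GPNMB at 100.4 CPM. Of the receptors and ligands 1 was higher in CHL1 and 5 lower. The former, ERBB3, was at 318.6 against 40.6 CPM. The lower ones, KIT, MC1R, ASIP, EDN1 and EDNRA, are named here after their values were seen. EDNRA was at 1.46 against 8.64 CPM, and the others were low in both lines. KIT was at 0 against 0.24 CPM, MC1R at 0.16 against 0.53, ASIP at 0.21 against 1.04 and EDN1 at 0 against 0.17. With the GC correction 2 of this list were higher in CHL1 and 4 lower, and MC1R was not called (adjusted p = 0.0527).

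Over the 9 group means of log2(CPM + 1), centred within each line, the profiles closest to that of MITF among 15657 genes were those of PCNXL4, DPY19L2P3 and PAX6, with a Pearson r of 0.99 each. The r of MITF with PAX3 was 0.63, with TFAP2A 0.54 and with PMEL -0.76. The MITF profile itself had an r of -0.84 with the groups' GC trend, and those of PCNXL4, DPY19L2P3 and PAX6 had -0.88, -0.80 and -0.89. PAX3 was at -0.93 and PMEL at 0.78, whereas TFAP2A and TYRP1 were at -0.24 and -0.28.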

How the data were processed

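Poly-A RNA of CHL1 and A375 cells was sequenced in paired ends by the authors in 18 libraries. Per the labels and the study's methods, reads were aligned with HISAT2 2.0.4 to GRCh37 and counted per gene with HTSeq (version 0.11.2 in the submitters' processing notes) at default settings, and genes with low expression were removed with edgeR. The deposited table is described as normalised, but it holds whole numbers with unequal totals, so its values were treated as raw counts. Whether the library kit marked strand is not given in the sources used here.

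Libraries were grouped by line, drug and time from the labels. edgeR 4.0.16 in R 4.3.3 was used for TMM normalisation and the quasi-likelihood test, with 1 fit for each line (8 and 10 libraries) and 1 of all 18 for comparisons between lines. P-values were adjusted over 20705 genes by the Benjamini-Hochberg method, and a gene was called below 0.05. Fits on genes with a GC value were adjusted over 15208 genes, and those with the CPM filter over the genes kept. Standard errors are the log2 fold change divided by the root of the F statistic. Nothing in the labels says that replicates came from separate cultures, so p-values measure the spread between these samples, which may be technical. Intervals and floors (3 reads in each library) cover counting error only, and reads are not independent molecules. The 10 members and the other lists were chosen with earlier results of these data known. Named genes are the members, and in each of the 6 treatment comparisons the 2 largest rises and 2 largest falls of each other list among called genes of at least 1 CPM in the line, plus the 3 genes most like MITF. Positions, merged exon lengths and the GC content of the longest transcript came from GENCODE on GRCh37, matched by current or older symbol for 15208 genes, which include 81.4% of those averaging at least 1 CPM. The GC correction is a loess curve (span 0.4) of each library's deviation on GC content, entered as an offset. The alternatives were DESeq2 1.42.0, RLE scaling, a filter of 1 CPM in 2 libraries, fits of the compared groups or of all libraries, a replicate block, the other A375 control and leaving out each library, where the lone sample left in a group is assumed to vary like the other groups. The GC correction of the counts in the other lists was chosen after seeing the data. Same-numbered samples deviated together in each of the 3 pairs of A375 groups of 72 hours (r of 0.23 to 0.52), so the blocked value stands beside the results there whose call it changes. The pairing comes from this check and not from the labels. The scripts were tested on simulated data.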

Additional observations from a re-analysis of the deposited data

Results flagged for a closer look

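The responses of the 2 lines to the same drug differed for 8 gene and drug pairs by the test of the difference itself. It was run in edgeR's fit of all 18 libraries with adjustment over 20705 genes. Of all genes, 21.9% were called for CDK4/6i at 6 days and 40.9% for PRMT5i. How these values changed with 1 library left out is given with the results above. Under CDK4/6i for 6 days the CHL1 response minus the A375 response, on the log2 scale, was 1.30 for MITF (adjusted p = 0.00182), 1.88 for TFAP2A (adjusted p = 0.000853) and -1.63 for DCT (adjusted p = 0.0189). Under PRMT5i it was 0.68 for MITF (adjusted p = 0.0364), 1.38 for PAX3 (adjusted p = 0.000387), 1.60 for EDNRB (adjusted p = 0.0139), 1.97 for TYRP1 (adjusted p = 0.0468) and -5.51 for DCT (adjusted p = 0.0167). With the GC correction, adjusted over the genes with a GC value, the PRMT5i differences of MITF (-0.024, adjusted p = 0.971), EDNRB (0.66, adjusted p = 0.26) and TYRP1 (1.16, adjusted p = 0.302) were not called. The DCT value under PRMT5i depends on the prior count, since DCT had 0 reads in the A375 controls.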

How the results depend on the processing

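Among the 8 genes, the number called moved by more than 1.5 times in these cases. For CHL1 CDK4/6i at 72 hours it was 2, and 4 with DESeq2, with only the groups compared or with the GC correction. For CHL1 PRMT5i it was 6, and 3 with the GC correction. For A375 CDK4/6i at 6 days it was 5, and 3 against the control of 72 hours. For A375 PRMT5i it was 1, against 0 with DESeq2, with the filter or on genes with a GC value, and 2 with only the groups compared or the GC correction. For the line difference under CDK4/6i at 72 hours it was 0, against 1 with DESeq2 or the GC correction and 3 with only the groups compared, and under PRMT5i it was 5, against 3 with the GC correction. For 6 days against 72 hours of CDK4/6i DESeq2 called 1 in CHL1 and 2 in A375. With the A375 control of 72 hours for both times the control cancels, and the treated libraries are compared directly. This gave 5, but time and library set cannot be told apart there. For the drugs in A375 only the groups compared gave 3 and the GC correction 1. The share of all genes called moved with the GC correction too. Among genes with a GC value it went from 5.5% to 13.2% for CHL1 CDK4/6i at 72 hours. For CHL1 PRMT5i this share went from 60.8% to 28.7%, and for A375 PRMT5i from 2.35% to 8.41%.

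Directions turned for DCT under CHL1 PRMT5i (-0.11 with the GC correction), for TYRP1 under A375 CDK4/6i at 6 days (-0.024 with DESeq2 and RLE scaling) and for MITF in the line difference under PRMT5i (-0.024 with the GC correction). Against the A375 control of 72 hours, 6 days of CDK4/6i gave 3.07 for EDNRB, 5.67 for TYR and 0.086 for PAX3, and the GC correction gave 0.10 for EDNRB. Between the lines, PMEL was at 0.04 with the GC correction and 0.29 against the 6-day control, where EDNRB was at -0.21. The cause was not tested.

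Replicate numbers in the labels are shared by 2 samples per group, and nothing in the labels says that they pair the samples, whose deviations had an r of -0.38 to 0.46 in CHL1. The replicate block left 2 calls for CHL1 CDK4/6i at 72 hours and 6 for CHL1 PRMT5i, and with the GC correction 4 and 3, with DCT at -0.10. In the 6 A375 libraries of 72 hours, PRMT5i gave 3 calls with the replicate block, 3 with the GC correction added and 2 without the block, and the drugs differed in 4, 5 and 3 genes. The block over 14 numbered libraries gave 1 call for the line difference under CDK4/6i at 72 hours.

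With 1 library left out, the number called was 0 to 1 for CHL1 CDK4/6i at 72 hours, 0 to 3 at 6 days, 4 to 6 for CHL1 PRMT5i, 0 to 0 for A375 CDK4/6i at 72 hours, 1 to 6 at 6 days, 0 to 0 for A375 PRMT5i, 5 to 6 between the lines, 0 to 0, 2 to 3 and 1 to 5 for the line differences under CDK4/6i at 72 hours, at 6 days and under PRMT5i, 0 to 0 and 0 to 3 for time in CHL1 and A375, and 4 to 5 and 0 to 0 for the drugs in CHL1 and A375. Some directions turned between these fits, whose values ran from -0.12 to 0.13 for MITF and -0.49 to 0.87 for PMEL under CHL1 CDK4/6i at 72 hours, -0.40 to 0.17 for DCT at 6 days, -1.64 to 0.59 for TYRP1 under A375 CDK4/6i at 72 hours, -1.15 to 0.30 for EDNRB, -1.69 to 1.24 for TYR and -0.20 to 0.33 for TYRP1 at 6 days, and -0.85 to 1.12 for TYRP1 and -0.086 to 0.66 for PMEL under A375 PRMT5i. Of these, EDNRB and TYR at 6 days were past the threshold at their lowest values. With 2 libraries per group and few reads of TYR, TYRP1, PMEL and A375 DCT, small changes of these genes could not be seen.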
